A study of Homo sapiens with 6 samples.

Results

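Amino acid transporters of the plasma membrane were followed in HCC38 cells in which the gene CIP2A had been silenced. The group held 10 genes, chosen by symbol out of the 26485 genes of the count table. They were SLC43A2, SLC43A1, SLC3A2, SLC7A5, SLC7A11, SLC7A1, SLC1A5, SLC1A4, SLC38A1 and SLC38A2. SLC43A2 entered the group because it was 1 of the 3 genes that DESeq2 had called between silenced and control cells in these same libraries, and SLC3A2 had been described there as a target of the stress factor ATF4. The other members are transporters of related function. Values of the members against the controls are therefore a description, and where calls are counted in that comparison nothing is supported with them.

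HCC38 cells are an established line that grew out of a human breast ductal adenocarcinoma, and the labels class it as triple negative and basal-like. CIP2A encodes an inhibitor of the phosphatase PP2A. The silenced group, siCIP2A, held 3 libraries, 1 for each of the different CIP2A siRNAs siCIP2A#1, siCIP2A#2 and siCIP2A#3. The control group held 3 libraries, 1 mock and 1 for each of the non-targeting siRNAs SCR#2 and SCR#3. The mock received transfection reagent alone by its own label, whereas the series design describes it as not transfected. All siRNAs were delivered with Oligofectamine into cells grown in RPMI medium with serum and added glutamine, and poly(A) RNA was sequenced. The labels do not state whether each library had its own culture. The p-values therefore speak of the spread among these 6 libraries, which may be technical.

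Between 13995187 and 18161451 reads were counted per library. CIP2A transcripts stood at 16.3% of the control mean with siCIP2A#1, 45.5% with siCIP2A#2 and 19.2% with siCIP2A#3, so the target was lowered least by siCIP2A#2. Among markers of the labelled cell type, KRT5 and KRT17 reached a count of at most 1 and KRT14, KRT6A and KRT6B were at 0 in every library, while EGFR was at 73.0 to 84.4 CPM. The hormone receptor genes ESR1 and PGR reached counts of at most 6 and 2. Of leukocyte genes, PTPRC was at 0 in every library and ITGAM reached 3.79 CPM. Of endothelial genes, CDH5 was at 0 while PECAM1 and KDR reached 6.22 and 6.28 CPM, and their list summed to 7.13 to 13.6 CPM in siCIP2A libraries and 7.5 to 10.8 CPM in controls. The luminal genes KRT8 and KRT18 reached 439 and 708 CPM, whereas KRT19, GATA3 and FOXA1 stayed at or below 0.71, 1.1 and 1.6 CPM. Summed fibroblast markers ran from 6.13 to 18.2 CPM in siCIP2A libraries and from 6.52 to 7.72 CPM in controls. Their part in any result was not tested. CPM denotes a count scaled to library size with the TMM factors of edgeR, and a count of 3 corresponds to at most 0.218 CPM in these libraries.

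Cells take up amino acids through transporters that differ in their substrates and in what drives them. SLC43A1 and SLC43A2 are facilitative uniporters of large neutral amino acids such as leucine and phenylalanine. SLC7A5 exchanges such amino acids across the membrane and SLC7A11 exchanges cystine for glutamate, and both reach the cell surface bound to the glycoprotein encoded by SLC3A2. SLC1A5 and SLC38A2 take up glutamine among other neutral amino acids. When amino acids run short or the endoplasmic reticulum is stressed, the kinase pathway that phosphorylates the initiation factor eIF2 raises translation of ATF4, a transcription factor whose known targets include several of these transporter genes.

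ATF4 dimers bind a composite site known as the amino acid response element, and the matches to its letters near the members' starts are shown because several members are known ATF4 targets. RefSeq promoter windows of GRCh38.p14, from 250 bases before to 50 bases after each listed start, were found for 9 members in 18 windows, and SLC7A11 had none. The letters TGATGNAAN were searched on both strands, with no other motif searched. They occurred in 3.61% of all 35116 windows and in 5 windows of the members, 1 each for SLC3A2, SLC7A1, SLC1A5, SLC1A4 and SLC38A1. Each stretch of 30 bases is written 5′ to 3′ on the strand of its gene, with the match in capitals. In SLC1A4 and SLC3A2 the match lay on the opposite strand.
SLC1A4, chr2:64989381-64989410, plus strand: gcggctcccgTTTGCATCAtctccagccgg
SLC3A2, chr11:62881719-62881748, plus strand: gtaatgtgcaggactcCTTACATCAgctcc
SLC38A1, chr12:46266501-46266530, minus strand: cagacccgaaTGATGAAAAgggatcagcta
SLC7A1, chr13:29595662-29595691, minus strand: ggcgcactgcTGATGAAACctggcgccgga
SLC1A5, chr19:46784892-46784921, minus strand: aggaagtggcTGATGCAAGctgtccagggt
The matches of SLC1A4 and SLC38A1 began 8 and 4 bases before the listed start and that of SLC1A5 97 bases before it. The matches of SLC7A1 and SLC3A2 began at bases 8 and 37 of the transcript. A match is a description of letters and no measure of binding, and several members have more than 1 listed start.

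SLC43A2, the member that led to the choice of the group, had 3 starts with a window and no match in any of them. Its gene lies on chromosome 17 from 1569254 to 1630088 on the minus strand. Of those 3 starts the farthest upstream lies inside this span, not at its outer end. The 250 bases before it, chr17:1628835-1629084 on the minus strand, are shown with every CG pair in capitals.
SLC43A2: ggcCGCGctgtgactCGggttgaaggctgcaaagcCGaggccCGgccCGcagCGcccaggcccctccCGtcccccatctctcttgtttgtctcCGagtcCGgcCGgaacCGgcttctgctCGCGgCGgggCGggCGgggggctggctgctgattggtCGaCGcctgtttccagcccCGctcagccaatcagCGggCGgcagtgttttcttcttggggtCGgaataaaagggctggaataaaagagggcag
This stretch held 23 CG pairs and was 66.8% G and C.

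Levels of the members were first compared with each other, per kilobase of the longest coding transcript in GENCODE 29. SLC38A2 was highest at 244 ± 11.7 CPM per kilobase in siCIP2A libraries and 231 ± 19.3 in controls (SD, n = 3 each), where it lay above 98.6% of the 12111 tested genes with a length. SLC38A1 averaged 74.0 ± 5.27 CPM per kilobase in siCIP2A libraries and 70.3 ± 1.23 in controls, and SLC3A2 71.7 ± 20.6 and 52.9 ± 7.44. SLC7A5 averaged 42.8 ± 15.9 CPM per kilobase in siCIP2A libraries and 33.7 ± 6.64 in controls, and SLC1A5 40.5 ± 10.5 and 33.8 ± 4.34. SLC7A5 and SLC1A5 did not differ beyond their spread, and their order turned when the length was the union of all exons (33.4 and 29.2 CPM per kilobase in controls).

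The remaining members stood lower on the same scale. SLC7A1 averaged 16.4 ± 4.12 CPM per kilobase in siCIP2A libraries and 15.5 ± 0.875 in controls, and SLC1A4 5.64 ± 1.38 and 4.87 ± 0.245 (SD, n = 3 each). SLC7A11 averaged 3.35 ± 1.42 CPM per kilobase in siCIP2A libraries and 2.28 ± 0.456 in controls, and SLC43A1 1.85 ± 0.341 and 1.49 ± 0.293. SLC43A2 was the lowest of the 10 in both groups, at 1.77 ± 0.245 CPM per kilobase in siCIP2A libraries and 0.977 ± 0.187 in controls, where it lay above 12.4% of tested genes. The control libraries of SLC43A1, from 1.15 to 1.69 CPM per kilobase, overlapped those of SLC43A2, from 0.841 to 1.19. The control ranges of all other neighbours in the order lay apart, except those of SLC1A5 and SLC7A5.

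**Figure D1:**
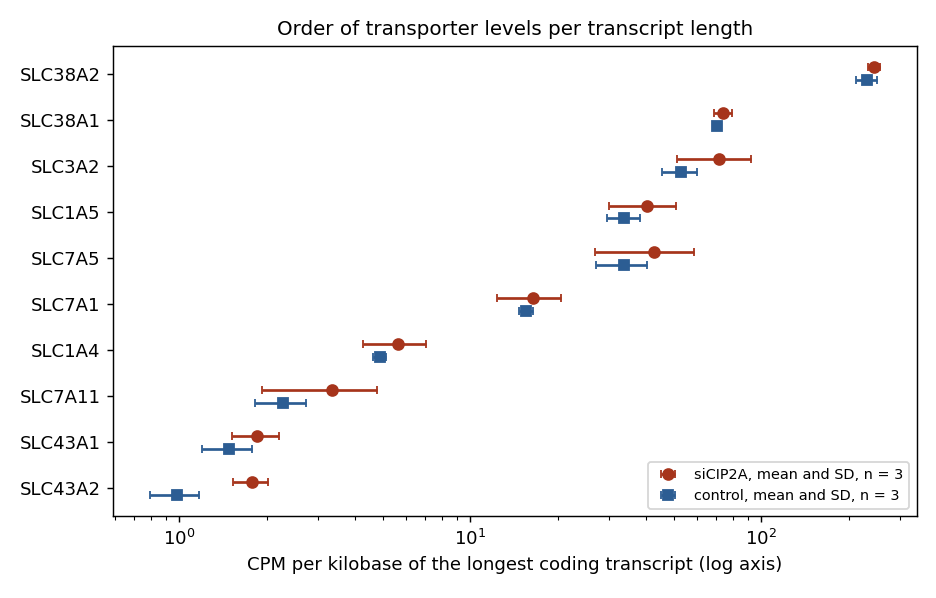
Levels of the 10 transporter transcripts in siCIP2A libraries (circles, above) and controls (squares, below), as CPM per kilobase of the longest coding transcript on a log axis, with mean and SD over 3 libraries each. SLC38A2 stands highest at 231 in controls, and SLC43A2 is lowest at 0.977 in controls, with overlapping error bars with SLC43A1 in siCIP2A libraries.

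The comparison of the siCIP2A group with the controls addressed which transcripts differed after silencing. SLC43A2, a leucine uniporter, was higher with every CIP2A siRNA. It measured 15.5 (siCIP2A#1), 15.6 (siCIP2A#2) and 12.1 CPM (siCIP2A#3), against 9.68 (mock), 6.84 (SCR#2) and 7.33 CPM (SCR#3). The groups did not overlap, and the mock was the highest control. In bulk RNA, fewer cells of a kind and less RNA per cell cannot be told apart, here and for every member. The group means were 14.4 ± 1.99 CPM in siCIP2A libraries and 7.95 ± 1.52 CPM in controls (SD, n = 3 each), a ratio of 1.82. These levels rest on counts of 206 to 287 in siCIP2A libraries and 108 to 133 in controls. The exact Poisson 95% intervals, which cover counting error only, were 10.5 to 13.9 CPM with siCIP2A#3 and 8.11 to 11.5 CPM in the mock, so these libraries were not separated by counting error alone.

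In edgeR's fit the log2 difference of SLC43A2 was 0.87 (SE 0.17), and over 14 alternative settings or left-out libraries it lay between 0.76 (without SCR#2) and 1.03 (against the non-targeting siRNAs, with the mock apart). Of the 10 members, SLC43A2 alone had groups that did not overlap, and 3.26% of all 13562 tested genes had every siCIP2A library above every control. Over the 10 members the median log2 difference was 0.29, with 10 of 10 above 0, where the median of all tested genes was -0.0011 and 49.7% of them were above 0. edgeR called 0 of the 10 members (0% of tested genes higher and 0% lower), with 3 members at an unadjusted p under 0.05 on the higher side (1.49% of tested genes). DESeq2 called SLC43A2 (0.0147% of tested genes called higher and 0.00737% lower), as did edgeR with no filter on low counts (0.0105%). Since the group was chosen with this comparison known, these shares were not read further.

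SLC43A1, the nearest relative of SLC43A2 in the group and a uniporter of the same substrates, was the member with the fewest counts. It measured 5.79 (siCIP2A#1), 4.59 (siCIP2A#2) and 4.07 CPM (siCIP2A#3), against 2.98 (mock), 4.38 (SCR#2) and 4.21 CPM (SCR#3). The mock was lowest and siCIP2A#1 highest, and the groups overlapped. Its log2 difference was 0.31 (SE 0.22), and 0.16 without siCIP2A#1. With counts of 69 to 107 in siCIP2A libraries and 41 to 75 in controls, the counting interval of the mock was 2.14 to 4.05 CPM.

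**Figure D2:**
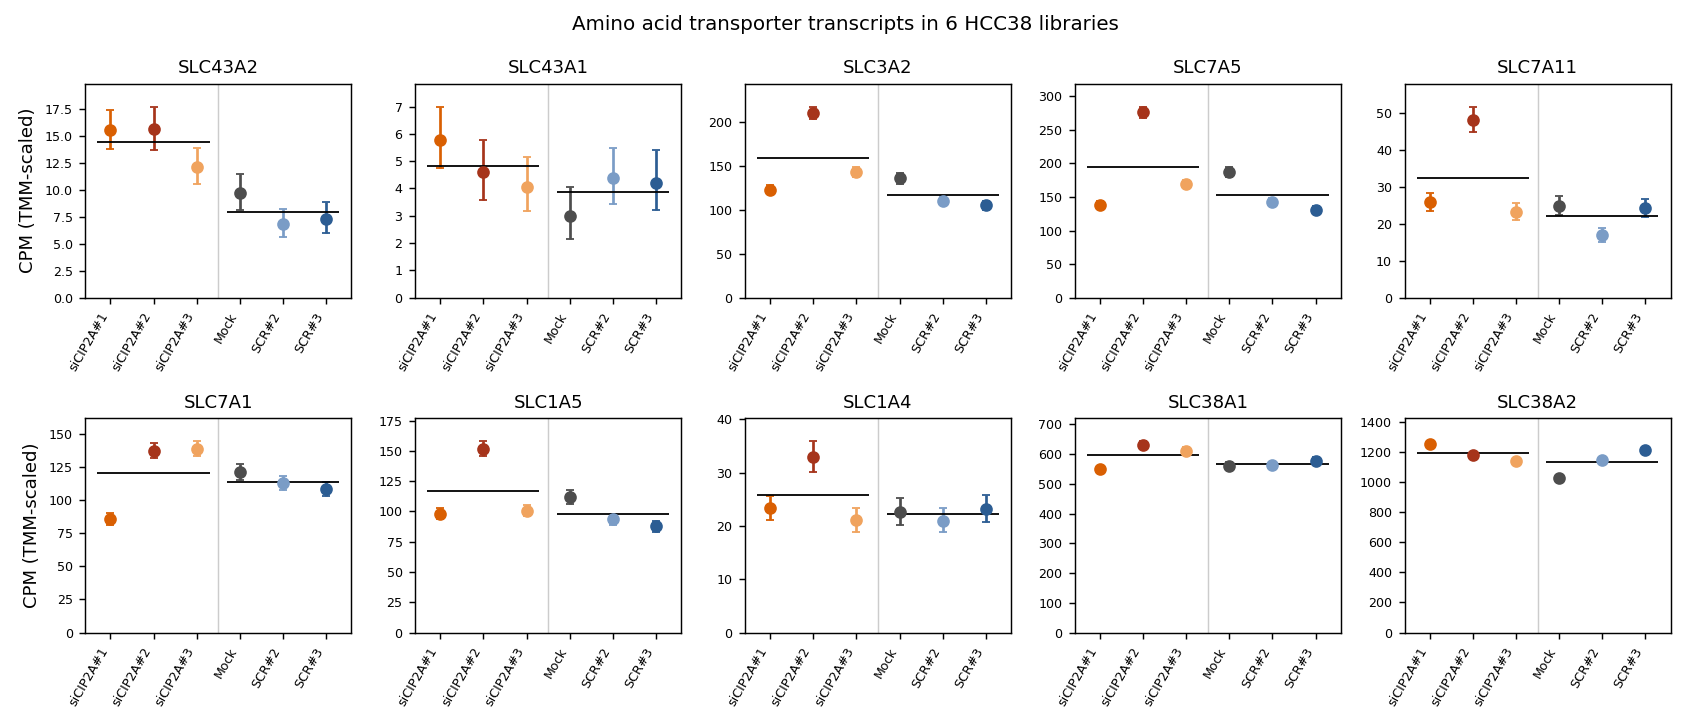
CPM of each member in the 3 siCIP2A libraries (left of the grey line) and the 3 controls (right of it), with exact Poisson 95% intervals of the count as bars and group means as black lines. SLC43A2 is above every control in each siCIP2A library. SLC3A2, SLC7A5, SLC7A11, SLC1A5 and SLC1A4 have siCIP2A#2 as their highest library. So do SLC43A2 (15.63 CPM, against 15.53 with siCIP2A#1) and SLC38A1 (630 CPM, against 611 with siCIP2A#3).

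The heteromeric transporters were highest with siCIP2A#2. SLC3A2, the shared heavy chain, measured 123 (siCIP2A#1), 211 (siCIP2A#2) and 144 CPM (siCIP2A#3), against 136 (mock), 111 (SCR#2) and 105 CPM (SCR#3). Its mock library lay above siCIP2A#1, so the groups overlapped. SLC7A5, the light chain that exchanges leucine, measured 138 (siCIP2A#1), 276 (siCIP2A#2) and 169 CPM (siCIP2A#3), against 187 (mock), 142 (SCR#2) and 129.97 CPM (SCR#3). The mock was above both siCIP2A#1 and siCIP2A#3. SLC7A11, the light chain of the cystine exchanger, measured 25.8 (siCIP2A#1), 48.1 (siCIP2A#2) and 23.1 CPM (siCIP2A#3), against 24.8 (mock), 16.9 (SCR#2) and 24.2 CPM (SCR#3). Here SCR#2 was the low control, and siCIP2A#1 and siCIP2A#3 lay near the other two.

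Fitted against the 3 controls, siCIP2A#2 had log2 differences of 0.84 (SE 0.14) for SLC3A2, 0.85 (SE 0.17) for SLC7A5 and 1.13 (SE 0.20) for SLC7A11. With siCIP2A#1 they were 0.07, -0.15 and 0.24, and with siCIP2A#3 0.29, 0.14 and 0.08. For the siCIP2A group as a whole they were 0.44 (SE 0.17), 0.34 (SE 0.22) and 0.56 (SE 0.25), and without siCIP2A#2 they were 0.18, 0.0040 and 0.16. The group values of all 3 moved by more than 1.5 times when that library was left out.

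SLC7A1, which carries arginine and lysine, had a different order. It measured 85.8 (siCIP2A#1), 138 (siCIP2A#2) and 139 CPM (siCIP2A#3), against 121 (mock), 113 (SCR#2) and 109 CPM (SCR#3). It was below every control with siCIP2A#1 and above every control with siCIP2A#2 and siCIP2A#3. The log2 differences were -0.41 (SE 0.11), 0.27 (SE 0.11) and 0.28 (SE 0.11) in that order, and the group value was 0.08 (SE 0.15). The group value was -0.04 without siCIP2A#3 and -0.03 without siCIP2A#2, so its sign rested on either library.

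The sodium-dependent exchangers of the SLC1 family were again highest with siCIP2A#2. SLC1A5, which takes up glutamine, measured 98.1 (siCIP2A#1), 152 (siCIP2A#2) and 101 CPM (siCIP2A#3), against 112 (mock), 93.3 (SCR#2) and 87.5 CPM (SCR#3). SLC1A4, which carries alanine, serine and cysteine, measured 23.3 (siCIP2A#1), 32.9 (siCIP2A#2) and 21.0 CPM (siCIP2A#3), against 22.6 (mock), 21.0 (SCR#2) and 23.1 CPM (SCR#3). For both genes the other siCIP2A libraries lay within or near the range of the controls. The log2 differences with siCIP2A#2 were 0.64 (SE 0.14) for SLC1A5 and 0.57 (SE 0.13) for SLC1A4. The group values were 0.26 (SE 0.16) and 0.21 (SE 0.16), and without siCIP2A#2 they were 0.03 and -0.0028.

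The sodium-coupled transporters SLC38A1 and SLC38A2, which accumulate glutamine and other small neutral amino acids, had the smallest relative spread of all members among siCIP2A libraries. SLC38A1 measured 549 (siCIP2A#1), 630.4 (siCIP2A#2) and 611 CPM (siCIP2A#3), against 559.9 (mock), 563 (SCR#2) and 578 CPM (SCR#3). SLC38A2 measured 1255 (siCIP2A#1), 1182 (siCIP2A#2) and 1142 CPM (siCIP2A#3), against 1029.6 (mock), 1148 (SCR#2) and 1216 CPM (SCR#3). The groups overlapped for both. The log2 differences of the group were 0.07 (SE 0.08) for SLC38A1 and 0.08 (SE 0.08) for SLC38A2. Over single siRNAs they ran from -0.05 to 0.15 for SLC38A1 and from 0.01 to 0.15 for SLC38A2. SLC38A2 was highest with siCIP2A#1, at 1255 CPM against 1216 CPM in SCR#3. Amino acid starvation is known to raise its transcripts, and whether starvation had a part here was not tested.

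Counted over all members, siCIP2A#2 lay above every control for 9 of 10 (28.6% of tested genes), siCIP2A#1 for 5 of 10 (26.5%) and siCIP2A#3 for 4 of 10 (25.7%). Below every control lay siCIP2A#1 for 2 of 10 (28.8%), siCIP2A#2 for 0 of 10 (30.7%) and siCIP2A#3 for 0 of 10 (28.6%). Of the 3 siCIP2A libraries, siCIP2A#2 was the highest for 7 of 10 members, as it was for 35.2% of tested genes. The median log2 difference of the members was 0.07 with siCIP2A#1, 0.60 with siCIP2A#2 and 0.09 with siCIP2A#3, where that of all tested genes was -0.0063, -0.0030 and -0.0091. edgeR called 0 of 10 members higher with siCIP2A#1 (0.059% of tested genes), 0 of 10 with siCIP2A#2 (0.0516% higher, 0.0221% lower) and 0 of 10 with siCIP2A#3 (0% higher, 0.00737% lower). At an unadjusted p under 0.05 it counted 2 members higher with siCIP2A#1 (5.57% of tested genes), 7 with siCIP2A#2 (5.38%) and 2 with siCIP2A#3 (2.99%). It counted 1 member lower with siCIP2A#1 (4.38%), 0 with siCIP2A#2 (6.21%) and 0 with siCIP2A#3 (5.24%). DESeq2 called SLC3A2, SLC7A5, SLC7A11 and SLC1A5 higher with siCIP2A#2 (0.332% of the genes it tested higher, 0.201% lower), 0 members with siCIP2A#1 (0.18% higher, 0.433% lower) and 0 with siCIP2A#3 (0.0369% higher, 0.177% lower). The 3 comparisons share their controls, and each siRNA had 1 library that was assumed to vary like the controls.

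With no filter on low counts SLC43A2 passed in edgeR with siCIP2A#1 and siCIP2A#2, at log2 differences of 0.96 and 0.98. With siCIP2A#2, SLC3A2 (0.84), SLC7A11 (1.14) and SLC1A5 (0.64) passed as well. Calls also changed when a single control was left out. Without the mock, edgeR called 7 of 10 members higher with siCIP2A#2 (12% of tested genes), 4 of 10 with siCIP2A#3 (4.85%) and, with siCIP2A#1, SLC43A2 higher (7.48%) and SLC7A1 lower (6.28%). The log2 differences of SLC43A2 were then 1.13 for siCIP2A#1, 1.14 for siCIP2A#2 and 0.78 for siCIP2A#3. With siCIP2A#2 edgeR called 3 of 10 members higher without SCR#2 (0.19%) and 4 of 10 without SCR#3 (0.276%). With siCIP2A#1 it called SLC43A2 without SCR#3 (0.378% higher), at 0.92. In these fits the spread came from the 2 libraries that remained, with 1 residual degree of freedom.

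**Figure D3:**
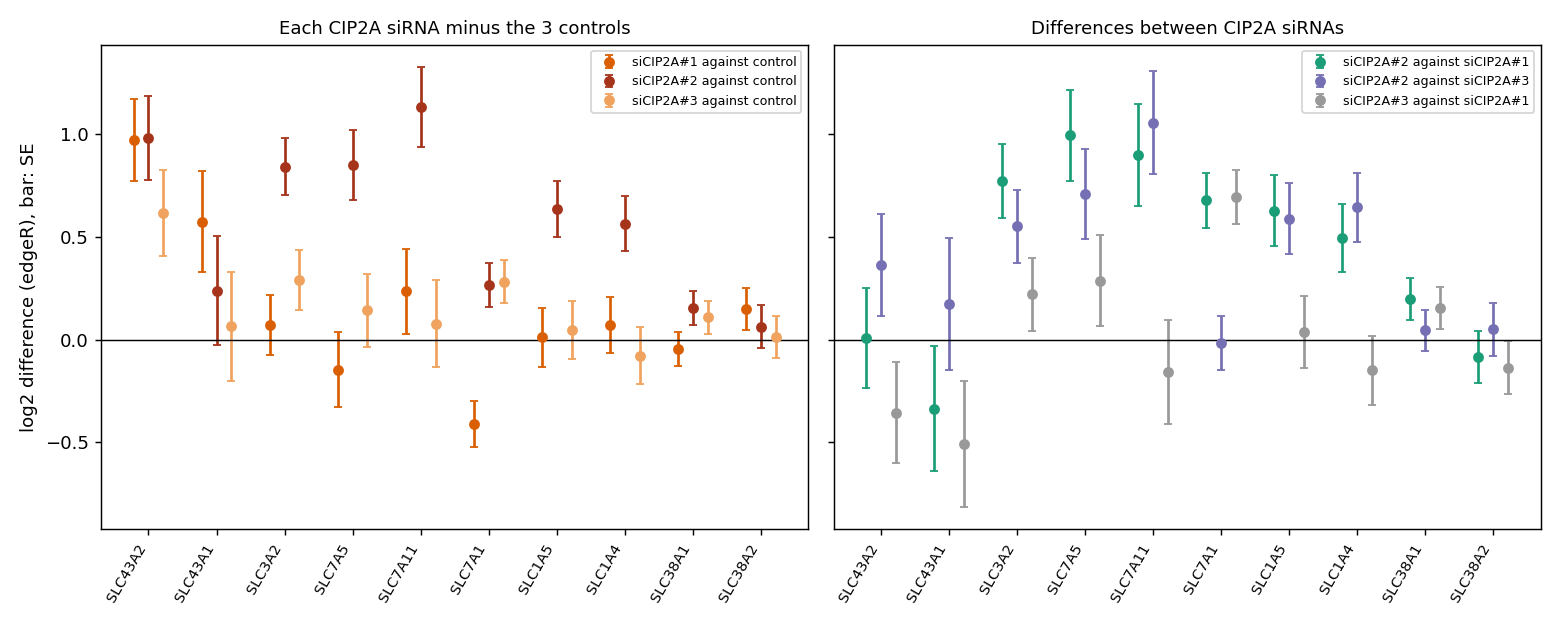
Log2 differences from edgeR's fit with each siRNA as its own level, with SE as bars. Left, each CIP2A siRNA minus the 3 controls, where SLC43A2 lies between 0.62 and 0.98 for all siRNAs and SLC3A2, SLC7A5, SLC7A11, SLC1A5 and SLC1A4 are highest with siCIP2A#2; right, the differences between siRNAs, where SLC7A1 stands at 0.68 and 0.69 for siCIP2A#2 and siCIP2A#3 against siCIP2A#1.

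Whether the members differed between CIP2A siRNAs was tested directly. Those differences were not a stated reason for the choice of the group. Earlier results of these data were known when it was made, so the p-values are not independent support. Each siRNA is 1 library and the spread comes from the 3 controls alone, so these tests compare libraries, and the siRNA and its library cannot be told apart. SLC7A5 was higher with siCIP2A#2 than with siCIP2A#1 by 1.00 on the log2 scale (SE 0.22, edgeR adjusted p = 0.170) and SLC3A2 by 0.77 (SE 0.18, edgeR adjusted p = 0.184), but neither passed the threshold. SLC7A11 differed by 0.90 (SE 0.25, edgeR adjusted p = 0.240), SLC7A1 by 0.68 (SE 0.13, edgeR adjusted p = 0.131) and SLC1A5 by 0.63 (SE 0.17, edgeR adjusted p = 0.238). SLC43A2 differed by 0.0089 (SE 0.24, edgeR adjusted p = 0.993). Between these siRNAs edgeR called 0 of 10 members (0.0147% of tested genes higher and 0% lower) and 6 were higher and 0 lower at an unadjusted p under 0.05 (5.38% and 6.71% of tested genes). The genes it called were CIP2A itself and the lysosomal gene PSAP.

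DESeq2 called SLC3A2 (adjusted p = 0.0302), SLC7A5 (adjusted p = 0.00491) and SLC7A1 (adjusted p = 0.0304) higher with siCIP2A#2 than with siCIP2A#1, where it called 0.392% of tested genes higher and 0.32% lower. edgeR called 7 of 10 members without the mock (8.42% higher), 3 of 10 without SCR#2 (0.395%) and 3 of 10 without SCR#3 (0.356%), with SLC3A2, SLC7A5 and SLC7A11 among them each time. With no filter on low counts SLC3A2 and SLC7A1 passed in edgeR for this pair, at 0.78 (SE 0.16) and 0.69 (SE 0.14). With 1 control left out the spread came from 2 libraries and 1 residual degree of freedom. Without the mock it came from SCR#2 and SCR#3, the most alike pair (chi-square per degree of freedom 3.2, against 8.94 and 11.3 for the mock with either).

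Between siCIP2A#2 and siCIP2A#3, SLC7A11 differed by 1.06 (SE 0.25, edgeR adjusted p = 0.165), SLC7A5 by 0.71 (SE 0.22, edgeR adjusted p = 0.213) and SLC1A4 by 0.64 (SE 0.17, edgeR adjusted p = 0.181). edgeR called 0 of 10 members here (0% of tested genes in either direction), with 5 higher and 0 lower at an unadjusted p under 0.05 (8.24% and 7.37%), and DESeq2 called 0 (0.548% higher, 0.375% lower). With a control left out edgeR called 5 of 10 members without the mock (11.4% of tested genes higher), 1 of 10 without SCR#2 (0.68%) and 2 of 10 without SCR#3 (0.596%). SLC7A11 was among them each time and was also called with no filter, and SLC7A5 was called without the mock and without SCR#3. Between siCIP2A#3 and siCIP2A#1, SLC7A1 had the lowest adjusted p of the members, with a log2 difference of 0.69 (SE 0.13, edgeR adjusted p = 0.0752). edgeR called 0 of 10 members (0.147% of tested genes higher and 0.361% lower), with 1 higher and 0 lower at an unadjusted p under 0.05 (5.6% and 7.96%). SLC7A1 passed the threshold in DESeq2, at a log2 difference of 0.70 (SE 0.18). It also passed in edgeR with no filter on low counts, at 0.71 (SE 0.14). Both values again compare 1 library of each siRNA, with the spread taken from the controls. edgeR called 2 of 10 members without the mock (8.71% higher), 1 of 10 without SCR#2 (0.46%) and 1 of 10 without SCR#3 (0.363%), with SLC7A1 among them each time.

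The spread among the controls was examined in a comparison that was not a stated reason for the choice of the group. Relative to the mock, the non-targeting siRNAs had log2 differences of -0.46 (SE 0.33) for SLC7A5, -0.45 (SE 0.24) for SLC43A2, -0.33 (SE 0.26) for SLC3A2, -0.30 (SE 0.23) for SLC1A5 and -0.28 (SE 0.42) for SLC7A11. SLC43A1 stood at 0.53 (SE 0.33) and SLC38A2 at 0.20 (SE 0.11). None of the 10 members passed, with edgeR adjusted p between 0.812 and 0.992, where edgeR called 0% of tested genes, 0 members had an unadjusted p under 0.05 (1.14% of tested genes higher, 5.18% lower) and DESeq2 called 0 members (0% higher, 0.0221% lower). The median of the members was -0.20, with 7 of 10 below 0, against 0.0023 for all tested genes. Against the non-targeting siRNAs alone the siCIP2A group had log2 differences of 1.03 (SE 0.18) for SLC43A2, 0.65 (SE 0.31) for SLC7A11, 0.56 (SE 0.20) for SLC3A2, 0.51 (SE 0.25) for SLC7A5 and 0.37 (SE 0.18) for SLC1A5. SLC43A1 then stood at 0.17 (SE 0.23). Each of the first 5 was larger than with the mock among the controls. That had to follow, since the non-targeting siRNAs lay below the mock for these genes. The comparison with the non-targeting siRNAs alone shares its libraries with the one known when the group was chosen, so it is a description. There 2 members were higher and 0 lower at an unadjusted p under 0.05 (4.09% and 1.47% of tested genes), and edgeR called 0.

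Other amino acid transporters were taken from a list of 43 genes in the table, of which 18 had enough counts to be tested. Their median log2 difference between siCIP2A and control libraries was 0.02, with 12 of 18 above 0 (49.7% of tested genes), and edgeR called 0 (0% of tested genes). At an unadjusted p under 0.05, 0 were higher (1.49%) and 1 was lower (1.23%). SLC6A6, the taurine transporter, measured 66.2 (siCIP2A#1), 75.2 (siCIP2A#2) and 77.1 CPM (siCIP2A#3), against 83.3 (mock), 98.9 (SCR#2) and 94.5 CPM (SCR#3). It was below every control in each siCIP2A library, with a log2 difference of -0.34 (SE 0.10, edgeR adjusted p = 0.999). The cystine exporter of lysosomes, CTNS, also had groups that did not overlap, at -0.17 (SE 0.13), and the glutamate transporter SLC1A3 lay above the controls at 0.54 (SE 0.29), with levels of at most 1.41 CPM. In all, 2 of 18 had every siCIP2A library below every control (4.38% of tested genes) and 1 of 18 above (3.26%). SLC7A2, a carrier of cationic amino acids like SLC7A1, stood at -0.30 (SE 0.16).

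Single siRNAs gave medians on both sides of 0 for this list. The median was 0.12 with siCIP2A#1, -0.06 with siCIP2A#2 and -0.08 with siCIP2A#3, and 6 of 18 genes lay above 0 with siCIP2A#2. The glycine transporter SLC6A9 stood at 1.00 (SE 0.37) with siCIP2A#2, at 1.68 CPM against at most 0.882 CPM in the controls. In the same library SLC7A2 stood at -0.66 (SE 0.16) and SLC36A4 at -0.44 (SE 0.18), and SLC16A10, a carrier of aromatic amino acids, at -0.37. SLC16A10 stood at 0.59 (SE 0.21) with siCIP2A#1 and 0.44 (SE 0.21) with siCIP2A#3. edgeR called 0 of the 18 with any siRNA, and the lowest adjusted p was 0.238 with siCIP2A#1, 0.246 with siCIP2A#2 and 0.635 with siCIP2A#3.

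**Figure D4:**
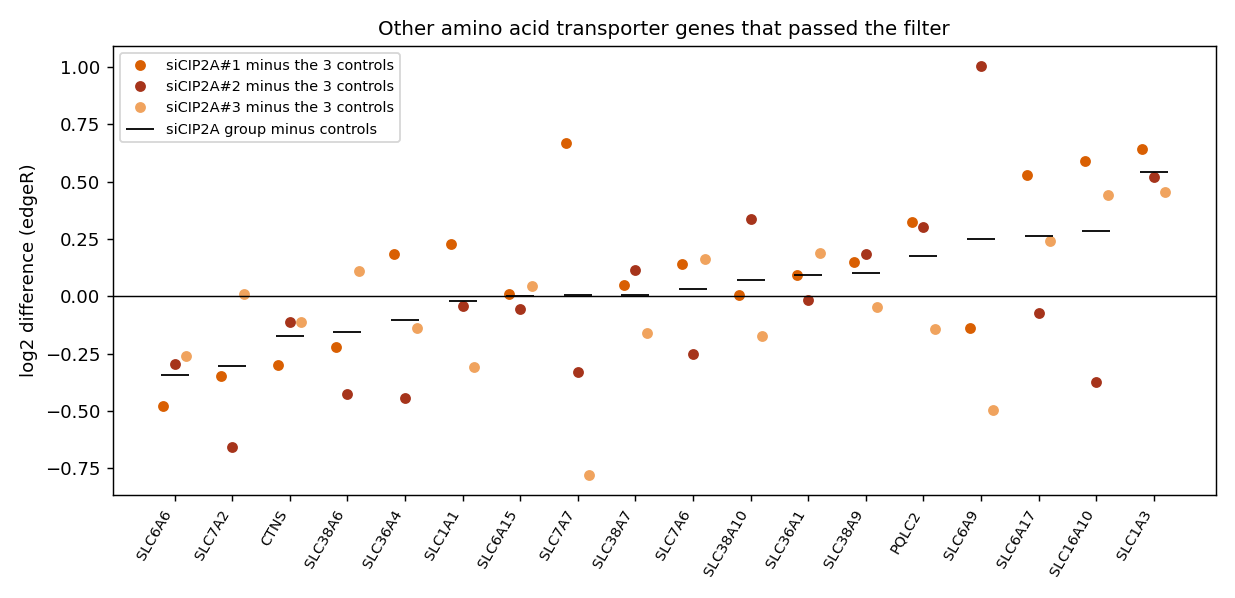
Log2 differences of the 18 other amino acid transporter genes that were tested, for each CIP2A siRNA minus the 3 controls (points) and for the siCIP2A group (bars). SLC6A6 lies below 0 and SLC1A3 above 0 with all 3 siRNAs, and SLC6A9 stands at 1.00 with siCIP2A#2 and below 0 with the other siRNAs.

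Regulators of the amino acid response were compared in the same libraries. Of 16 listed and tested genes edgeR called 2 higher with siCIP2A#2 (0.0516% of tested genes), 0 with siCIP2A#1 and 0 with siCIP2A#3. TRIB3, a pseudokinase induced by stress, was higher in the siCIP2A#2 library by 1.00 on the log2 scale (SE 0.12, edgeR adjusted p = 0.0310), and the transcription factor gene DDIT3 by 0.96 (SE 0.12, edgeR adjusted p = 0.0332). Over 7 alternatives, added after seeing the data, these differences lay between 0.97 and 1.03 for TRIB3 and between 0.95 and 0.98 for DDIT3. With 1 siCIP2A#2 library and the spread taken from the controls, the calls of TRIB3 and DDIT3 are calls on that library. The list was chosen with earlier results of these data known, so these calls are a description. ATF4 measured 125 (siCIP2A#1), 181 (siCIP2A#2) and 139 CPM (siCIP2A#3), against 143 (mock), 142 (SCR#2) and 131 CPM (SCR#3). siCIP2A#2 was its highest library, at a log2 difference of 0.39 (SE 0.10, edgeR adjusted p = 0.268), and siCIP2A#1 its lowest. CEBPB, whose protein pairs with ATF4, stood at 0.73 (SE 0.19) with siCIP2A#2. Whether these regulators take part in the members' levels was not tested.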

How the data were processed

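Poly(A) RNA of HCC38 cells was measured in 6 libraries. Per the file headers, the table the authors deposited gives raw counts, a whole number for each gene in each library. The submitters' processing notes name bcl2fastq 2.17, STAR 2.5.4b, Subread 1.5.1 and the build hg38. The annotation, strand setting and treatment of reads mapping to several genes are steps not given in the sources used here, although the library kit keeps strand. Close paralogs and antisense overlaps are therefore uncertain: SLC7A11-AS1 shares 276 exon bases with SLC7A11 and reached a count of at most 2, and SLC1A5 and SLC7A5 share 780 and 116 exon bases with antisense genes outside the table. A spreadsheet had altered 51 gene symbols, none of them a member's, and 50 were restored from the Entrez identifier. KIAA1524 is given as CIP2A.

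The filter filterByExpr with a minimum count of 10 kept 13562 genes, among them all 10 members. Libraries were scaled with TMM and tested with edgeR 4.0.16 (robust quasi-likelihood, R 4.3.3) at Benjamini-Hochberg adjusted p under 0.05 over all tested genes. Residual degrees of freedom were 4 for the group comparison, 3 for the fit with mock apart and 2 for single siRNAs. The steps were tested on simulated data. DESeq2 1.42.0 and limma 3.58.1 gave alternatives. Coordinates came from the RefSeq gene table of GRCh38.p14 and lengths from GENCODE 29. Intervals of counts are exact Poisson intervals.

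The members and lists were chosen with earlier results of these data known. All 10 members are named, with up to 4 genes of each other list per comparison by smallest p. Genes most like SLC43A2 were the 5 with the highest Pearson correlation over the libraries, among genes whose log2 CPM averaged 1 or more and spanned 0.5 or more. Genes named as called between siRNAs, and CTNS and SLC1A3 for groups that did not overlap, were chosen after their values were seen. Leaving out single controls in the comparisons between siRNAs, and all alternatives for SESN2, TRIB3 and DDIT3, were added after seeing the data.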

Additional observations from a re-analysis of the deposited data

How the results depend on the processing

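For siCIP2A against control edgeR called 0 genes, 3 with DESeq2, 3 with no filter and 1 with the replicate number as a block, and 0 to 1 with a library left out. The block left SLC43A2 at 0.87 and called 0 members. Deviations of same-numbered libraries correlated at -0.117, -0.128 and 0.00762, and no siCIP2A library correlated best with its own number. With 3 libraries per group, each of a different agent, these values cannot decide whether the replicate numbers pair the libraries. The median of the members was 0.29, and from 0.06 (without siCIP2A#2) to 0.39 (without siCIP2A#3) with a library left out. For siCIP2A#1, siCIP2A#2 and siCIP2A#3 against control the counts of 16, 10 and 1 became 75, 61 and 29 with DESeq2 and 169, 109 and 44 with no filter. With a control left out they ran from 85 to 1896, from 40 to 3088 and from 32 to 1330. For non-targeting siRNAs against mock 0 became 3 with DESeq2 and 5 with no filter. Between siRNAs, the counts for siCIP2A#2 against siCIP2A#1 (2), siCIP2A#3 against siCIP2A#1 (69) and siCIP2A#2 against siCIP2A#3 (0) became 89, 144 and 96 with DESeq2 and 156, 305 and 211 with no filter. With a control left out they ran from 101 to 2302, from 213 to 2477 and from 108 to 3026. The highest counts came without the mock, and the cause was not tested. Of 620 values of single members under alternatives, 541 kept their direction and side of the threshold. Another 65 passed only under the alternative, 32 of them against control and 33 between siRNAs, and 14 turned sign, 12 of them against control, where the log2 difference with all libraries was at most 0.21. The other 2 were SLC1A4 for non-targeting siRNAs against mock (-0.10 to 0.0361 with a non-targeting library left out, above 0 without SCR#2) and SLC43A2 for siCIP2A#2 against siCIP2A#1 with upper quartile factors (-0.0086). Counts of 41 to 287 limit the precision for SLC43A1 and SLC43A2.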

Other observations

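The genes whose pattern over the 6 libraries was most like that of SLC43A2 were FAM43A (Pearson r = 0.975), MAST3 (0.968), the lysosomal phospholipase gene PLA2G15 (0.963), the kinesin gene KIF7 (0.962) and the Notch ligand gene DLL1 (0.961), out of 3911 genes compared. These values describe 6 libraries and carry no test. PLA2G15 measured 45.8 (siCIP2A#1), 47.7 (siCIP2A#2) and 36.6 CPM (siCIP2A#3), against 34.6 (mock), 31.2 (SCR#2) and 30.8 CPM (SCR#3). As for SLC43A2, the mock was the highest control and siCIP2A#3 the lowest siCIP2A library. The log2 differences of these 5 genes between siCIP2A and control libraries lay between 0.37 and 0.56. The genes were picked for a pattern like that of SLC43A2. Neither the shared order of libraries nor the direction of these differences is therefore a separate result.

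Genes that report amino acid supply to the kinase complex mTORC1 were also listed, and all 32 were tested. SESN2, a leucine-binding inhibitor of this pathway that is also induced by ATF4, was higher in the siCIP2A#2 library by 1.28 on the log2 scale (SE 0.13). Over 7 alternatives, added after seeing the data, it was higher by 1.25 to 1.33. The call of SESN2 by edgeR is a call on 1 library, with the spread taken from the controls. The list was chosen with earlier results of these data known, so this call is a description. SESN2 measured 19.4 (siCIP2A#1), 39.1 (siCIP2A#2) and 18.7 CPM (siCIP2A#3), against 17.2 (mock), 15.8 (SCR#2) and 15.3 CPM (SCR#3). edgeR called 1 of 32 genes higher with siCIP2A#2 (0.0516% of tested genes), 0 with siCIP2A#1, 0 with siCIP2A#3 and 0 for the group. With siCIP2A#2 the arginine sensor gene GATSL3, also named CASTOR1, stood at 0.77 (SE 0.24), NPRL3 at 0.51 (SE 0.14) and MTOR at -0.31 (SE 0.09). FNIP2, a partner of the Rag GTPase regulator folliculin, stood at 0.66 (SE 0.13) with siCIP2A#1 and 0.31 (SE 0.13) with siCIP2A#3, and at -0.14 with siCIP2A#2. The median log2 difference of the list was -0.01 for the group, where that of all tested genes was -0.0011.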
